A study of Homo sapiens with 4 samples.

Results

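RGS proteins, RAS and RAP regulators and their relatives were examined in KGN, a line grown from a human granulosa cell tumour. The members were chosen by gene symbol, with earlier results of these data known. They are the RGS, RASA, RASGRP, RASGRF, RAPGEF, RAP1, RAP2, RASD, RASL, RASSF and SIPA1 names together with RRAD, REM1 and REM2. This gave 69 genes of the 17687 that the arrays measured with a named gene, and each was read by 1 probe set. The 4 groups were siYT+8Br-cAMP, siYT, siNC+8Br-cAMP and siNC, with 1 Clariom S Human array each. The siYT cells had received siRNAs against YAP and TAZ at 5 nM each, and the siNC cells a control siRNA at 10 nM. After 48 h the medium was changed, with or without the cyclic AMP analogue 8Br-cAMP at 0.5 mM, and RNA was taken 24 h later. All groups share the transfection and the line, so every value comes from cells treated with an siRNA. Nothing in the labels says that an array stands for more than 1 culture.

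Heterotrimeric G proteins carry the signal of seven-helix receptors, among them the gonadotropin receptors of granulosa cells, and RGS proteins end that signal by speeding GTP hydrolysis on the alpha subunit. RAS and RAP are small GTPases that exchange factors switch on and GTPase-activating proteins (GAPs) switch off. RAP1 can be switched on by cyclic AMP through the EPAC exchange factors, and RASSF proteins link RAS-type GTPases to the kinases of the Hippo pathway, which restrain the coactivators YAP and TAZ.

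Values are the deposited log2 levels, and a difference is the level on the first named array minus that on the second. A difference was called by size when it was at least 1, which is 2-fold, and when the higher array of the pair was at or above 6.22. That level filter is the median over every gene and array. For a call in both media or after both siRNAs, each difference had to reach 1 in the same direction, with any of the 4 arrays at or above the filter. With 1 array per group there is no replicate check of any difference, and the number of arrays limits the precision. Levels above 16 occur, which exceeds the log2 range of a 16-bit scanner, so the values may have been rescaled, and folds here are simply powers of 2 of the deposited differences. The targeted genes followed the labels. YAP1 was at 6.29 in siYT+8Br-cAMP and 6.80 in siYT, against 9.46 in siNC+8Br-cAMP and 9.48 in siNC. WWTR1, which encodes TAZ, was at 5.35 and 5.45 in the siYT arrays in the same order, against 9.13 and 7.58 in the siNC arrays. Array medians lay between 6.20 and 6.27, and the 95th percentile of 612 negative control probe sets was 6.95 over all arrays (6.98 in siYT+8Br-cAMP and 7.29 in siYT, against 6.53 in siNC+8Br-cAMP and 6.94 in siNC). The 2197 positive controls differed between siYT and siNC by a median of -0.35 with 8Br-cAMP and -0.36 without it, and its part in the siRNA differences was not tested. Of 10 measured granulosa markers, 6 reached the level filter in siYT+8Br-cAMP and 5 in siYT, against 4 in siNC+8Br-cAMP and 3 in siNC, while FOXL2, INHA, AMHR2 and HSD17B1 reached it on no array. Of 5 smooth muscle and pericyte markers, ACTA2 and PDGFRB reached it on every array. None of 3 leukocyte and 3 endothelial markers reached it on any array. Of 5 theca and stroma markers, LUM and DCN reached it in both siYT arrays and in neither siNC array, PDGFRA and COL1A1 on all 4 arrays and CYP17A1 on none. PDGFRA differed between siYT and siNC by 0.06 with and 2.53 without 8Br-cAMP, and COL1A1 by -0.99 with and 0.11 without it. In bulk RNA, fewer cells of a kind and less RNA per cell cannot be told apart.

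Of the 69 members, 33 had at least 1 array at or above the level filter, 19 of them all 4 arrays, and 36 had none. These shares sit beside 9750 of all 17687 genes with at least 1 such array. A total of 21 members (30.4%) were called in at least 1 of the 5 differences, against 4570 of all genes (25.8%). With siYT against siNC, 5 members were called higher and 1 lower without 8Br-cAMP, where 14.9% of all genes were called in either direction, 7.6% higher and 7.32% lower. With 8Br-cAMP 7 were called higher and 1 lower, against 11.5% of all genes, 5.52% higher and 5.94% lower. The 7 higher members are 10.1% of the 69 and the single lower one 1.45%. With 8Br-cAMP against none, 4 members were called higher and 5 lower after siNC, where 8.06% of all genes were called, 4.32% higher and 3.74% lower. After siYT 6 were called higher and 6 lower, together 17.4% of the members against 8.21% of all genes, 4.06% higher and 4.15% lower. In both media 4 members were called higher with the siRNA and none lower, against 7.33% of all genes in either direction. Among them RGS9 passed the level filter in siYT alone and was not called by itself with 8Br-cAMP. After both siRNAs 4 were called higher and 2 lower with 8Br-cAMP, against 3.05% of all genes. Of those called higher, RAP1GAP and RASD2 passed the filter in siYT+8Br-cAMP alone and were not called by themselves after siNC. The difference of differences subtracts the siNC cells' 8Br-cAMP difference from that of the siYT cells. Its call needed a size of at least 1, with any of the 4 arrays at or above the level filter. The difference of differences was called for 12 members (17.4%), 5 higher and 7 lower, against 8.39% of all genes, 3.57% higher and 4.82% lower. The median member differed by 0.10 without and 0.19 with 8Br-cAMP for the siRNA, against medians of 0.02 and 0.06 over all genes. For 8Br-cAMP the member medians were -0.08 after siYT and -0.23 after siNC, against -0.02 and -0.03 over all genes. All of these medians include genes under the level filter on every array, among them 36 of the 69 members. The bars of called shares place the counts of calls side by side.

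**Figure D1:**
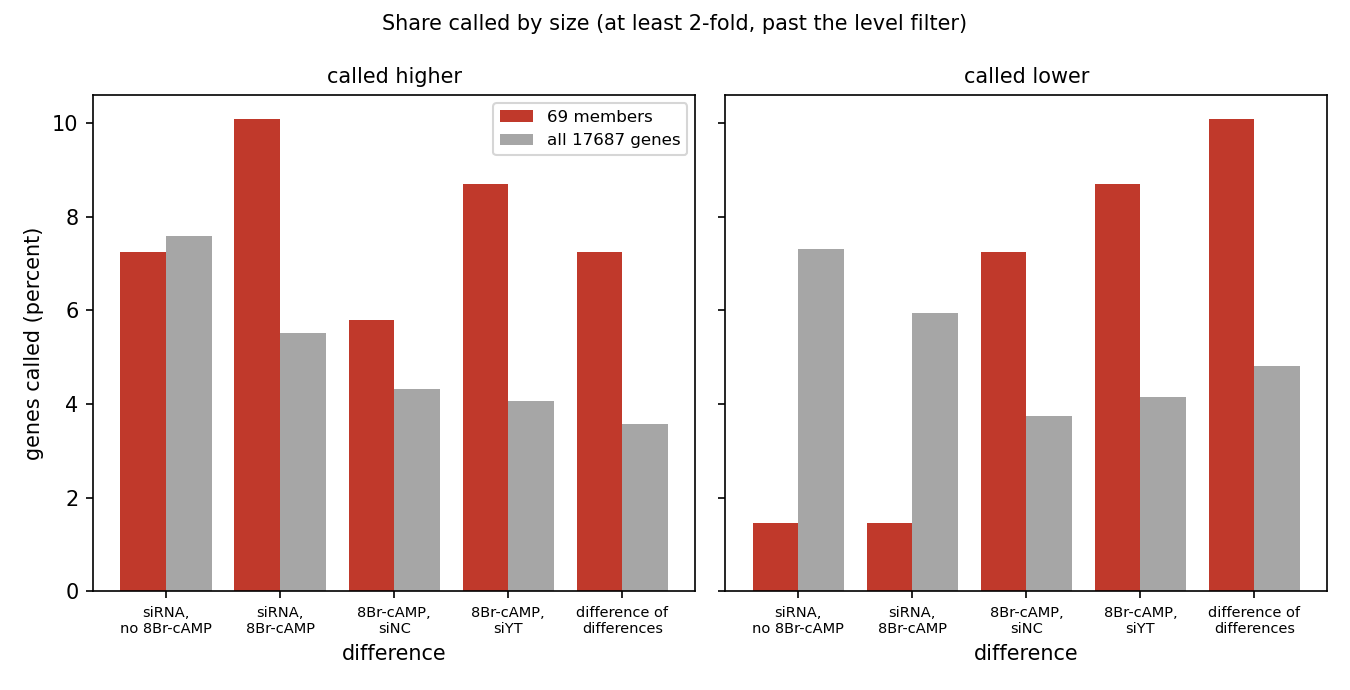
Percent of genes called by size in each of the 5 differences, higher in the left panel and lower in the right. Red bars stand for the 69 members and grey bars for all 17687 genes; each difference rests on 1 array per group, so there are no error bars. The member bar is lowest in the right panel for both siRNA differences (1.45% each), beside 7.32% and 5.94% of all genes.

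The small GTPases of the RASD and RASL families held the largest 8Br-cAMP differences after siNC. RASD1, a RAS-like protein first found as a dexamethasone-induced gene and known to act on inhibitory G proteins, was at 10.07 in siYT+8Br-cAMP and 5.89 in siYT, against 10.42 in siNC+8Br-cAMP and 4.33 in siNC. It was high on both 8Br-cAMP arrays and under the level filter on both others. The difference was 4.19 (18.2-fold) after siYT and 6.09 (68.3-fold) after siNC. Its paralogue RASD2, known as Rhes and best studied in the striatum, was at 6.80 in siYT+8Br-cAMP and 4.64 in siYT, against 5.39 in siNC+8Br-cAMP and 4.01 in siNC. The 8Br-cAMP difference of RASD2 was 2.15 after siYT and 1.38 after siNC, and only the siYT+8Br-cAMP array reached the level filter. RASL11A, a RAS-like protein without the lipid-anchor tail of classical RAS, was at 7.46 in siYT+8Br-cAMP and 6.15 in siYT, against 9.58 in siNC+8Br-cAMP and 5.29 in siNC. Its 8Br-cAMP difference was 1.30 (2.46-fold) after siYT and 4.29 (19.6-fold) after siNC. With 8Br-cAMP present, RASL11A was 2.13 lower in siYT than in siNC, a 4.36-fold difference, and it was the only member called lower there. The folds of RASD1, RASD2 and RASL11A start from levels under the filter and so depend on the background. The other 4 RASL members reached the level filter on no array, and their 8Br-cAMP differences ran from -0.39 to 0.36 after siYT and from -0.45 to 0.79 after siNC.

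Promoter sequence was looked up for these GTPases because the cyclic AMP response element (CRE), bound by CREB, is a known route from cyclic AMP to transcription. RefSeq promoters (GRCh38.p14, 250 bases before to 50 after each annotated start) were matched for 54 of the 69 members. RAP1GAP, RASSF8 and RRAD were among the members without a promoter sequence, so they were not searched. Both strands were searched for the full CRE TGACGTCA, for the shorter core TGACG, which every full CRE also holds, and for the TEAD site GGAATG, the element through which YAP and TAZ act. The full CRE was in the window of 1 member (1.85%), against 2.25% of all genes with a promoter. The short core was found for 19 members (35.2%), against 28.4% of all genes, and the TEAD site for 9 (16.7%), against 16.7%. A gene counted when any of its windows held the motif. The 54 members had 94 windows and all 27305 genes had 35116, so the members had more windows per gene and the shares are not like for like. Of all windows, 24.6% held the short core and 14% the TEAD site. A match is a description of letters and not a site of binding. The stretches below are from the 8Br-cAMP-high members RASD1, RASD2 and RASL11A, and from RASSF9, called higher with 8Br-cAMP after siNC only. The others are from RGS2 and from RAP1B, which holds the full CRE. Each is 100 bases long and lies before the start, directly so except for RASD1 and RGS2, whose stretches were moved further out to hold the match. They run 5′ to 3′ on the gene's strand, with full CRE and short core matches in capitals.
RASD1, chr17:17496446-17496545, minus strand: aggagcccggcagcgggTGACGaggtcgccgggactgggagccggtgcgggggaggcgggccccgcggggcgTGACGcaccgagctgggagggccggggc
RASD2, chr22:35532706-35532805, plus strand: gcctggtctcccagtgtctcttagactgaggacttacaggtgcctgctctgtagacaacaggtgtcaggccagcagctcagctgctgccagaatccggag
RASL11A, chr13:27270730-27270829, plus strand: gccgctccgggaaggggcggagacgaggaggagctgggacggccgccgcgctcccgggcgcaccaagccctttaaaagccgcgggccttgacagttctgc
RASSF9, chr12:85836410-85836509, minus strand: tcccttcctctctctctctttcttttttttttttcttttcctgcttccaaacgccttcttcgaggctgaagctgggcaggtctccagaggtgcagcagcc
RGS2, chr1:192808839-192808938, plus strand: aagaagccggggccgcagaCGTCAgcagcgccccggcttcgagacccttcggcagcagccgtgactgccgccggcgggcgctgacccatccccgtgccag
RAP1B, chr12:68610799-68610898, plus strand: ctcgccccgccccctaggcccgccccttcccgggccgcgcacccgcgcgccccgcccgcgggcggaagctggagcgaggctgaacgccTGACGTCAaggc

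The RASD1 window held 2 short cores, which begin 133 and 78 bases before the start. The RGS2 window held 1 short core, on the opposite strand, that begins 181 bases before the start. Where a gene had several windows, the window with the most short cores was printed. Short cores also lay in windows of the called members RGS4, RASGRF2 and SIPA1L2, which are not printed. With 8Br-cAMP these 3 differed by -1.68, -1.10 and 0.42 after siNC, and by -0.35, 0.30 and 1.36 after siYT. The other members with a short core were called in no difference. None of the 3 motifs was in the windows of RASD2, RASL11A and RASSF9. RAP1B, with a full CRE that begins 12 bases before its start, differed by -0.14 after siYT and -0.31 after siNC with 8Br-cAMP.

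**Figure D2:**
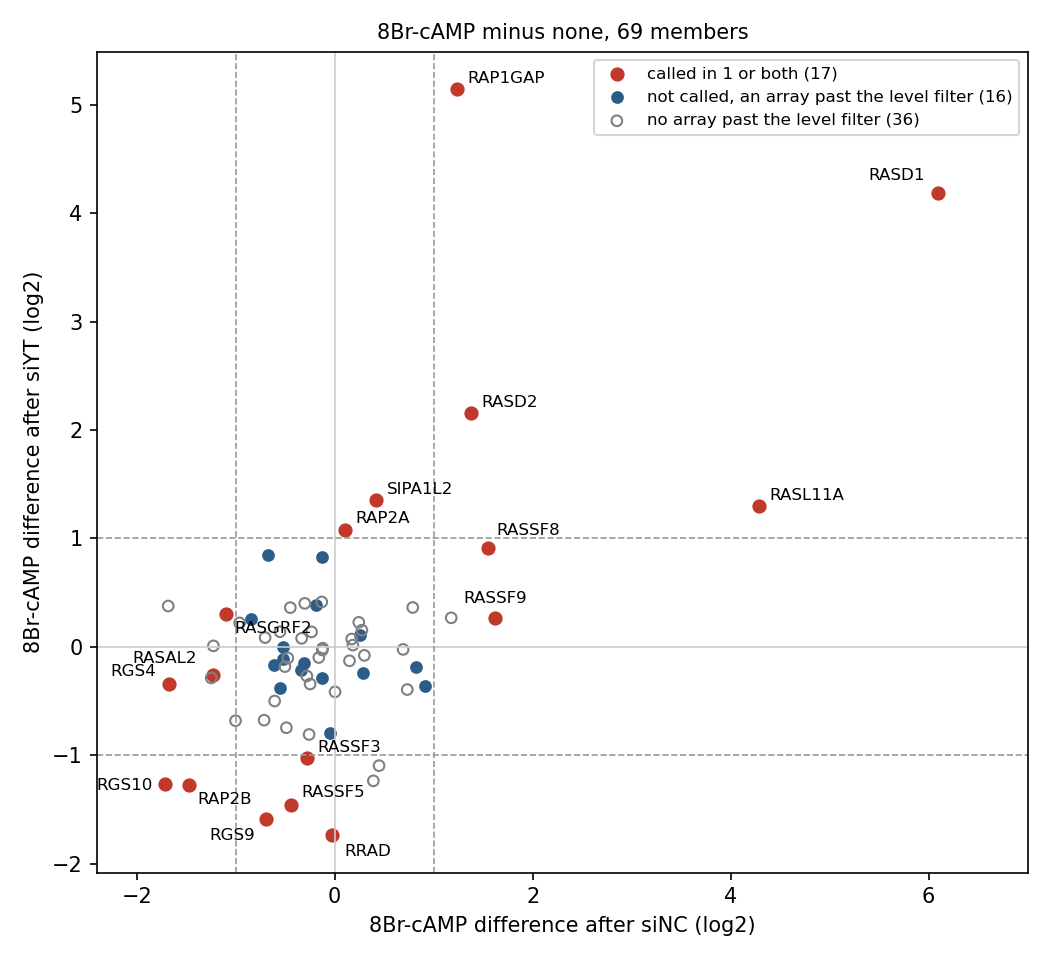
Difference with minus without 8Br-cAMP on the log2 scale, after siYT on the vertical axis and after siNC on the horizontal axis, for the 69 members. Red points were called by size in at least 1 of the 2 differences (17 members), blue points were not, grey rings had no array past the level filter, and dashed lines mark differences of 1. RASD1 and RASL11A lie far to the right, RAP1GAP far above, and RGS10 and RAP2B lie beyond -1 on both axes.

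RAP1GAP, the GAP that switches off RAP1, reached the level filter only where both treatments were combined. It was at 9.27 in siYT+8Br-cAMP and 4.12 in siYT, against 5.52 in siNC+8Br-cAMP and 4.29 in siNC. The 8Br-cAMP difference was 5.15 (35.4-fold) after siYT and 1.24 (2.36-fold) after siNC, and the difference of differences was 3.91. The siRNA difference was 3.75 (13.4-fold) with 8Br-cAMP and -0.16 without. The smaller values are at the background, so these folds depend on it.

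The other members that act on RAP1 moved less or in other patterns. RAP1GAP2, a second GAP of RAP1, was at 7.32 in siYT+8Br-cAMP and 6.50 in siYT, against 7.13 in siNC+8Br-cAMP and 7.26 in siNC and was not called in any difference. RAP1GDS1, a chaperone of small GTPases with basic tails, was at 6.39 in siYT+8Br-cAMP and 5.53 in siYT, against 6.23 in siNC+8Br-cAMP and 6.91 in siNC. It was lowest in siYT, 1.37 lower than in siNC, and differed by 0.15 between the siRNAs with 8Br-cAMP. It was the only member called lower after YAP/TAZ siRNA without 8Br-cAMP, and with the filter set at the negative controls' 6.95, which it reached on no array, that call was lost. RASD2, RASGRF2, RGS9 and SIPA1L2 were the other called members that reached 6.95 on no array. SIPA1L2, a RAP GAP of the SIPA1 family, was at 6.54 in siYT+8Br-cAMP and 5.19 in siYT, against 6.0 in siNC+8Br-cAMP and 5.58 in siNC, with an 8Br-cAMP difference of 1.36 after siYT and 0.42 after siNC. SIPA1L3 was at 8.94 in siYT+8Br-cAMP and 8.68 in siYT, against 8.27 in siNC+8Br-cAMP and 9.12 in siNC. None of its 4 pairwise differences was called, but they differed in sign, and the difference of differences of 1.10 was called. SIPA1 reached the level filter on no array.

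The RAP GTPases themselves were above the level filter on all 4 arrays. RAP1A lay between 10.21 and 10.75 and RAP1B between 12.85 and 13.28, and neither was called in any difference. RAP2 proteins are known to restrain YAP and TAZ through MAP4K kinases in cells on soft matrix. RAP2B was at 6.85 in siYT+8Br-cAMP and 8.13 in siYT, against 6.77 in siNC+8Br-cAMP and 8.24 in siNC. It was low on both 8Br-cAMP arrays, by -1.27 after siYT and -1.47 after siNC, and differed by 0.08 and -0.11 between the siRNAs with and without 8Br-cAMP. RAP2A was at 9.63 in siYT+8Br-cAMP and 8.55 in siYT, against 8.92 in siNC+8Br-cAMP and 8.82 in siNC, and its 8Br-cAMP difference of 1.08 after siYT was called while that of 0.10 after siNC was not. RAP2C lay between 9.37 and 10.43 and was not called.

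None of the 6 measured RAPGEF exchange factors was called in any of the 5 differences. Among them RAPGEF2, RAPGEF6 and RAPGEF1 had an array past the level filter. RAPGEF2, known to be active in neuroendocrine cyclic AMP signalling, lay between 10.25 and 10.55. RAPGEF3, the cyclic AMP-gated EPAC1, lay between 3.80 and 4.10 and so under the level filter throughout. The siRNA differences of the 6 ran from -0.30 to 0.32 with 8Br-cAMP and from 0.02 to 0.67 without it.

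Of 20 measured RGS genes, 6 had an array past the level filter and 4 were called in at least 1 difference, each in its own pattern. RGS10, which acts on inhibitory G alpha subunits, was at 7.74 in siYT+8Br-cAMP and 9.0 in siYT, against 8.02 in siNC+8Br-cAMP and 9.73 in siNC. It was lower on both 8Br-cAMP arrays, by -1.26 after siYT and -1.71 after siNC, all 4 levels being above the filter. RGS4, which acts on Gi and Gq alpha subunits, was at 14.25 in siYT+8Br-cAMP and 14.60 in siYT, against 13.01 in siNC+8Br-cAMP and 14.68 in siNC. The siNC+8Br-cAMP array was the low one: the 8Br-cAMP difference was -0.35 after siYT and -1.68 (3.20-fold lower) after siNC, and the siRNA difference was 1.24 with 8Br-cAMP and -0.09 without. RGS4 is therefore called in the difference of differences, at 1.33.

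RGS2, which acts mainly on Gq and is known as a gene induced by cyclic AMP in several cell types, was at 6.78 in siYT+8Br-cAMP and 7.14 in siYT, against 6.78 in siNC+8Br-cAMP and 5.86 in siNC. The untreated siNC array alone was under the level filter, and the siRNA difference without 8Br-cAMP was 1.28 (2.42-fold). The 8Br-cAMP difference of RGS2 was -0.36 after siYT and 0.91 after siNC, neither called. RGS9, the RGS protein of photoreceptors and the striatum, was at 4.97 in siYT+8Br-cAMP and 6.55 in siYT, against 3.53 in siNC+8Br-cAMP and 4.23 in siNC. The siRNA difference was 2.32 (5.01-fold) without 8Br-cAMP, which was called, and 1.44 with it, where both arrays were under the level filter. RGS9 was called lower with 8Br-cAMP after siYT, by -1.58, beside -0.70 after siNC, and no array of it reached the negative controls' 6.95.

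RGS3 and RGS14 had levels past the filter on all arrays without a call. RGS3 was at 8.46 in siYT+8Br-cAMP and 9.25 in siYT, against 8.41 in siNC+8Br-cAMP and 8.46 in siNC. RGS14, which also binds RAS-type GTPases and free Gi alpha, lay between 6.64 and 7.16. Of the 14 RGS genes with no array past the filter, RGS20 differed by -1.33 and -1.07 between siYT and siNC with and without 8Br-cAMP. RGS18, RGS21, RGS1, RGS13 and RGS2 follow each other on chromosome 1 without another protein-coding gene between them in the RefSeq order (GRCh38.p14). Of these neighbours only RGS2 had an array past the level filter, and the highest level of the other 4 was 4.62.

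**Figure D3:**
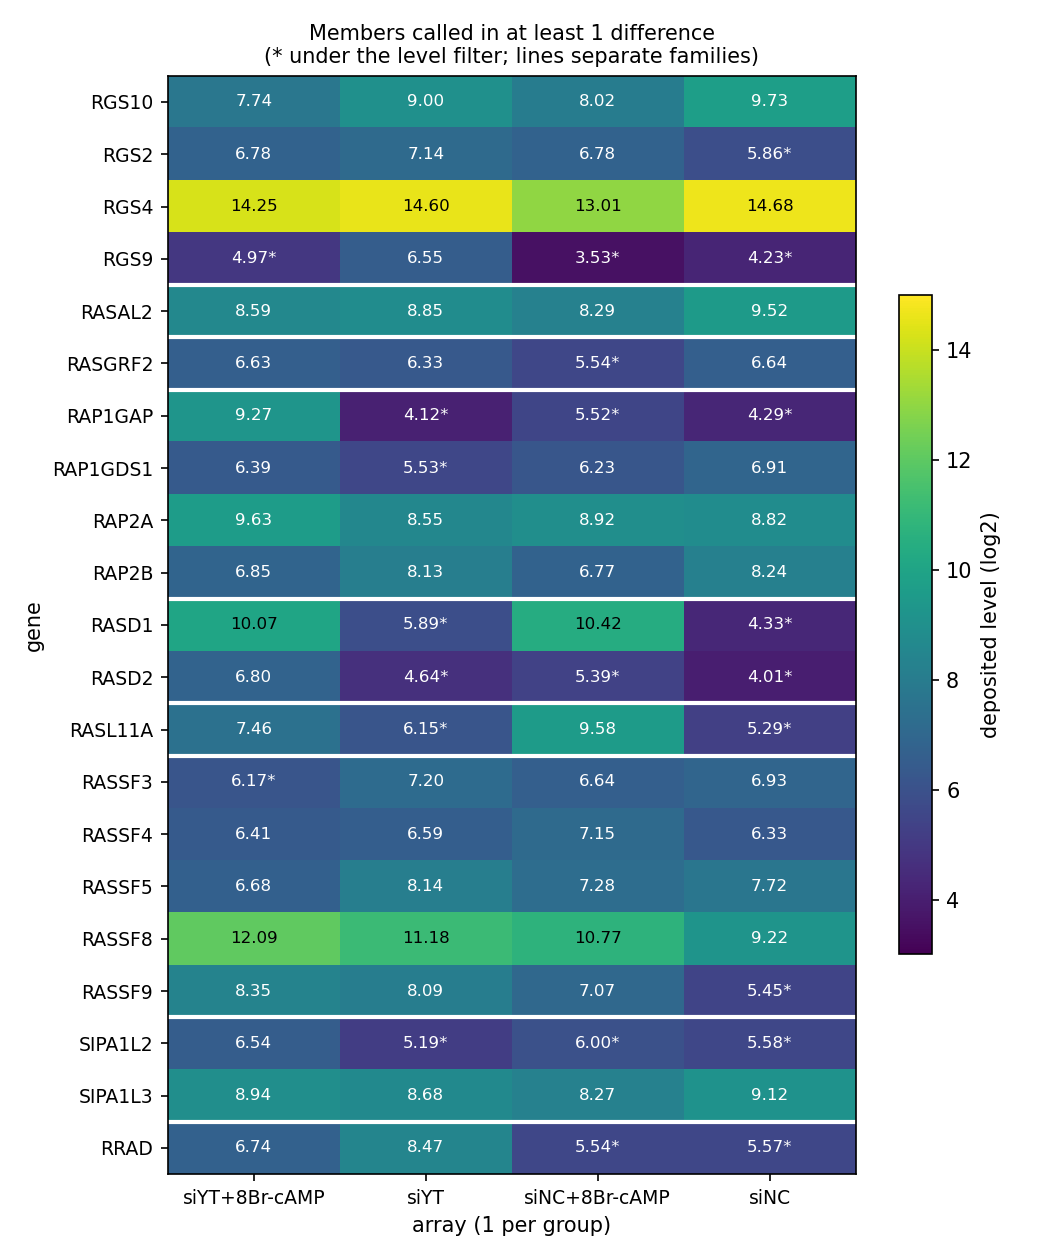
Deposited log2 levels of the 21 members called in at least 1 of the 5 differences, on each of the 4 arrays (1 per group); asterisks mark levels under the level filter of 6.22 and white lines separate gene families. RAP1GAP is above the filter only in siYT+8Br-cAMP (9.27), RASD1 only on the 2 arrays with 8Br-cAMP (10.07 and 10.42), and RRAD only on the 2 siYT arrays (6.74 and 8.47).

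Among 10 RASSF proteins, RASSF8 and RASSF9 were called higher with YAP/TAZ siRNA in both media. They belong with RASSF7 and RASSF10 to the branch without the SARAH domain that binds Hippo kinases. RASSF7 was past the level filter in siNC alone, at 6.60, and differed by -0.64 with and -0.81 without 8Br-cAMP between siYT and siNC. RASSF10 reached the filter on no array and differed by -0.07 with and -0.77 without 8Br-cAMP. RASSF8, a protein of cell contacts, was at 12.09 in siYT+8Br-cAMP and 11.18 in siYT, against 10.77 in siNC+8Br-cAMP and 9.22 in siNC. The untreated control was lowest and the doubly treated array highest, and all 4 levels were above the filter. The siRNA difference was 1.32 (2.50-fold) with and 1.96 (3.88-fold) without 8Br-cAMP, and the 8Br-cAMP difference was 0.91 after siYT and 1.55 (2.93-fold) after siNC. RASSF9 was at 8.35 in siYT+8Br-cAMP and 8.09 in siYT, against 7.07 in siNC+8Br-cAMP and 5.45 in siNC. Its siRNA difference was 1.28 (2.43-fold) with and 2.64 (6.22-fold) without 8Br-cAMP, and its 8Br-cAMP difference was 0.27 after siYT and 1.62 (3.08-fold) after siNC. For both genes each treatment made a smaller difference when the other was present, and for RASSF9 the difference of differences of -1.35 was called.

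None of the RASSF proteins with a SARAH domain was called for the siRNA. RASSF5, an effector of RAP1 and RAS also called RAPL or NORE1, was at 6.68 in siYT+8Br-cAMP and 8.14 in siYT, against 7.28 in siNC+8Br-cAMP and 7.72 in siNC, with an 8Br-cAMP difference of -1.46 after siYT and -0.44 after siNC. RASSF3 was at 6.17 in siYT+8Br-cAMP and 7.20 in siYT, against 6.64 in siNC+8Br-cAMP and 6.93 in siNC, with -1.03 after siYT and -0.28 after siNC. RASSF4 was at 6.41 in siYT+8Br-cAMP and 6.59 in siYT, against 7.15 in siNC+8Br-cAMP and 6.33 in siNC, and only its difference of differences, -1.01, was called. RASSF1, the best known Hippo activator of the family, reached the level filter on no array (4.12 to 5.43). The SARAH-domain partners STK3, STK4 and SAV1 were not called in any of the 4 pairwise differences, and SAV1 had a called difference of differences of -1.03.

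RRAD, a GTPase of the RGK family that holds back voltage-gated calcium channels and is known as a p53 target, was at 6.74 in siYT+8Br-cAMP and 8.47 in siYT, against 5.54 in siNC+8Br-cAMP and 5.57 in siNC. It was above the level filter on both siYT arrays and under it on both siNC arrays. The siRNA difference was 1.20 (2.29-fold) with and 2.90 (7.49-fold) without 8Br-cAMP, the largest of the 69 members without 8Br-cAMP. The 8Br-cAMP difference was -1.74 after siYT and -0.03 after siNC. REM1 and REM2 of the same family reached the level filter on no array.

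**Figure D4:**
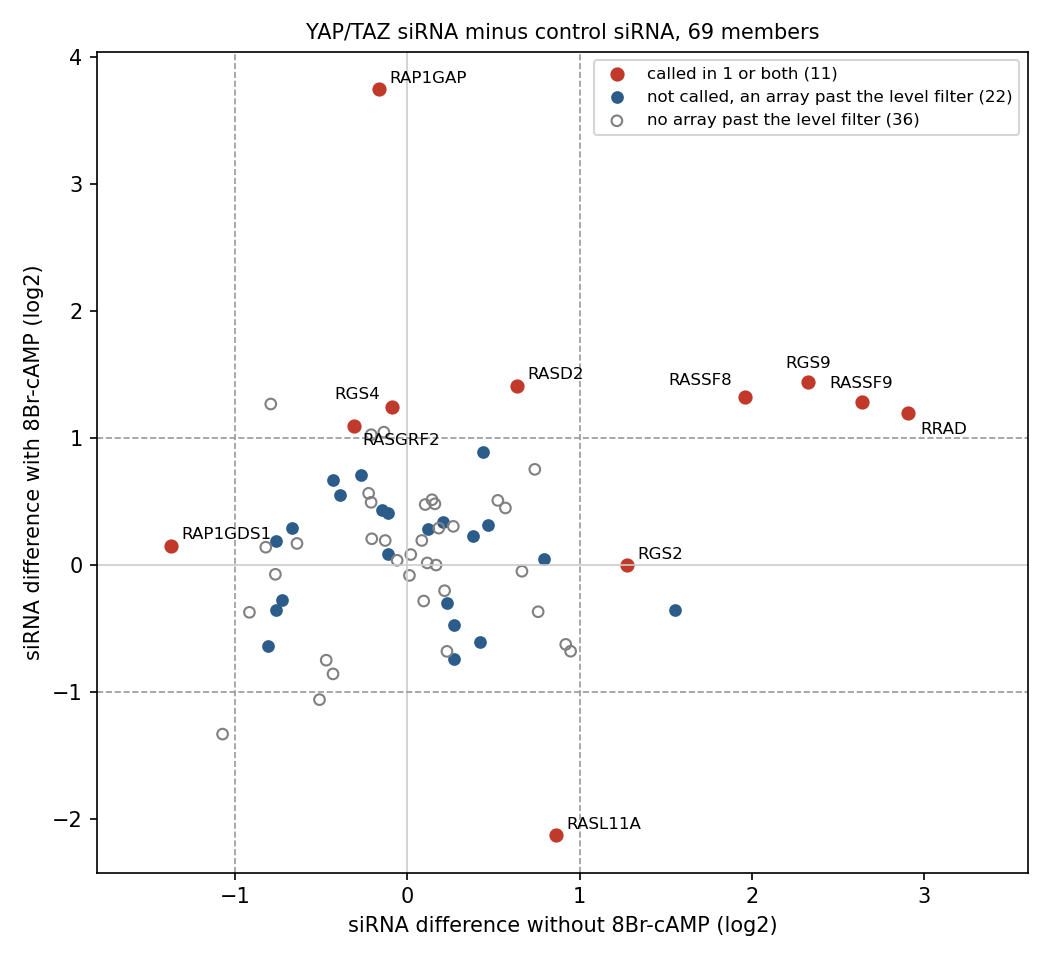
Difference of siYT minus siNC on the log2 scale, with 8Br-cAMP on the vertical axis and without on the horizontal axis, for the 69 members. Red points were called by size in at least 1 of the 2 differences (11 members), blue points were not, grey rings had no array past the level filter, and dashed lines mark differences of 1. RASSF8, RASSF9, RGS9 and RRAD lie beyond 1 on both axes, RAP1GAP lies high at 3.75 with 8Br-cAMP, and RASL11A low at -2.13.

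Of 12 GAPs and exchange factors of RAS (the RASA, RASAL, RASGRF and RASGRP genes), 4 had an array past the level filter, and RASAL2 and RASGRF2 of these were called. RASAL2, a RAS GAP, was at 8.59 in siYT+8Br-cAMP and 8.85 in siYT, against 8.29 in siNC+8Br-cAMP and 9.52 in siNC, and only its 8Br-cAMP difference after siNC, -1.23, was called, beside -0.26 after siYT. RASA3, a GAP regulated by phosphoinositides, lay between 9.09 and 9.96 and RASA2 between 6.33 and 6.77, without a call. RASA4 has a near-identical copy, RASA4B, so its level (4.01 to 5.25) may hold signal of both. RASGRF2, a calcium-regulated exchange factor of RAS and RAC, was at 6.63 in siYT+8Br-cAMP and 6.33 in siYT, against 5.54 in siNC+8Br-cAMP and 6.64 in siNC. The siNC+8Br-cAMP array was again the low one, with an siRNA difference of 1.09 with 8Br-cAMP and an 8Br-cAMP difference of -1.10 after siNC. RASGRF1 and the 4 RASGRP exchange factors, which blood cells use most, reached the level filter on no array.

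The 12 members past the level filter that were called in no difference differed by -0.64 to 0.89 between the siRNAs with 8Br-cAMP and by -0.81 to 0.79 without it. With 8Br-cAMP they differed by -0.79 to 0.83 after siYT and by -0.62 to 0.29 after siNC. Differences of at least 1 also occurred under the level filter, for 6 members in the siRNA difference with 8Br-cAMP and 2 without, and for 2 in the 8Br-cAMP difference after siYT and 7 after siNC. RASGRP3 had the largest of these differences of differences, 2.06, with no level above 5.77.

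An additive limma model with siRNA and 8Br-cAMP as terms was fitted to all 17687 genes as a second view. It has 1 residual degree of freedom, which is the difference of differences itself, so its p-values do not measure a spread between cultures. For the siRNA 5 members passed an adjusted p of 0.05, where 8.97% of all genes passed, 4.3% higher and 4.67% lower. RRAD rose by a mean of 2.05 (SE 0.406, limma adjusted p = 0.0114), RASSF9 by 1.96 (SE 0.372, limma adjusted p = 0.00934), RGS9 by 1.88 (SE 0.336, limma adjusted p = 0.00656) and RASSF8 by 1.64 (SE 0.322, limma adjusted p = 0.0109). RGS20 fell by 1.20 (SE 0.309, limma adjusted p = 0.0375), all at levels under the filter. For 8Br-cAMP 5 members passed, where 1.81% of all genes passed, 1.15% higher and 0.662% lower. RASD1 rose by 5.14 (SE 0.427, limma adjusted p = 0.000212), RAP1GAP by 3.19 (SE 0.683, limma adjusted p = 0.0473), RASL11A by 2.80 (SE 0.558, limma adjusted p = 0.0357) and RASD2 by 1.77 (SE 0.329, limma adjusted p = 0.0252). RGS10 fell by 1.49 (SE 0.314, limma adjusted p = 0.0451), and RAP2B, with -1.37 (SE 0.308), missed the threshold (limma adjusted p = 0.0555). RAP2B passed under cyclic loess, array centring, the level-filtered gene set and the trend on mean level. With 32 added to the linear values before the log, none of all 17687 genes passed for either term, so no member did, while 8 members had an unadjusted p under 0.05 for the siRNA and 7 for 8Br-cAMP.

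Other genes of these pathways were counted by the same size rule. Of 16 G alpha subunits, GNAI1 and GNAZ of the inhibitory class were called higher and GNA11 of the Gq class lower with YAP/TAZ siRNA in both media. Over all genes, 3.44% were called higher and 3.89% lower in both media. The classes did not move as 1: GNAI3 of the inhibitory class differed by -0.73 with and -1.02 without 8Br-cAMP, the latter called lower. GNAQ of the Gq class differed by 0.96 with and 0.90 without 8Br-cAMP, neither called. With 8Br-cAMP, GNAI1 and GNAL were called higher after both siRNAs, where 1.74% of all genes were. GNAI1 differed by 2.29 after siYT and 1.12 after siNC, and GNAL by 1.37 and 1.06. GNAI1 was at 16.76 in siYT+8Br-cAMP and 14.47 in siYT, against 14.59 in siNC+8Br-cAMP and 13.47 in siNC, and GNA11 was at 7.72 in siYT+8Br-cAMP and 7.80 in siYT, against 9.30 in siNC+8Br-cAMP and 9.55 in siNC. Of 17 G beta and gamma subunits, GNB4 was called lower in both media (-1.69 with and -1.46 without 8Br-cAMP), and none was called for 8Br-cAMP. Of 20 other RGS-homology and GoLoco proteins and RGS partners, AXIN2, a scaffold of beta-catenin breakdown, was called higher in both media (1.21 with and 1.76 without 8Br-cAMP). It was also called higher with 8Br-cAMP after both siRNAs (1.79 after siYT and 2.34 after siNC). AXIN2 was at 7.39 in siYT+8Br-cAMP and 5.60 in siYT, against 6.18 in siNC+8Br-cAMP and 3.84 in siNC. Both calls rest on siYT+8Br-cAMP, the only array past the level filter. Taken alone, its siRNA difference without 8Br-cAMP and its 8Br-cAMP difference after siNC were not called. GPSM2, a spindle orientation protein, was called lower with the siRNA in both media (-1.29 with and -1.2 without 8Br-cAMP).

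Of 19 RAS family GTPases outside the members, DIRAS3, a RAS relative that restrains growth, was the 1 gene called higher with the siRNA in both media, and RRAS2 and RHEBL1 were called lower. RHEBL1 was at 3.89 in siYT+8Br-cAMP and 4.23 in siYT, against 5.53 in siNC+8Br-cAMP and 6.32 in siNC. It passed the level filter in siNC alone, so its siRNA difference with 8Br-cAMP, -1.64, was not called by itself. DIRAS3 and MRAS were called higher with 8Br-cAMP after both siRNAs, and RALA lower, by -1.36 after siYT and -1.37 after siNC. DIRAS3 was at 9.13 in siYT+8Br-cAMP and 6.64 in siYT, against 7.72 in siNC+8Br-cAMP and 5.01 in siNC. RRAS2 was at 8.63 in siYT+8Br-cAMP and 9.18 in siYT, against 10.11 in siNC+8Br-cAMP and 11.66 in siNC. MRAS, which activates RAF with SHOC2, had an 8Br-cAMP difference of 3.47 after siYT and 2.72 after siNC. After both siRNAs, 1.74% of all genes were called higher with 8Br-cAMP and 1.31% lower. Of 15 other exchange factors, GAPs and adaptors none kept a call across media or across siRNAs. Of 14 RAS and RAP effectors, RGL1, an exchange factor of RAL, was called higher with the siRNA in both media (1.71 with and 1.53 without 8Br-cAMP), and RIN2 lower with 8Br-cAMP after both siRNAs (-1.14 after siYT and -1.48 after siNC).

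Genes of cell division moved with the siRNA in the same arrays. All 25 measured mitosis genes were called lower with YAP/TAZ siRNA in both media, with medians of -3.94 with and -3.66 without 8Br-cAMP. All 8 measured cyclic AMP responsive genes were called higher with 8Br-cAMP after both siRNAs. Of 8 measured YAP/TAZ targets, 5 were called lower with the siRNA in both media. The part of cell division or of the stromal markers in the members' siRNA differences was not tested.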

How the data were processed

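KGN RNA was hybridised to 4 Clariom S Human arrays, 1 per group. The deposited log2 values are RMA expression values, which the authors made in Affymetrix Expression Console, per the submitters' processing notes. Software versions and the annotation's genome build are not given in the sources used here. Of 24351 probe sets, 17709 named exactly 1 gene in GEO's platform annotation and gave 17687 genes, the probe sets of 20 genes being averaged. Differences were taken between arrays with Python 3.11.15 and called by size at 1 with the level filter. The additive limma fit (limma 3.58.1, R 4.3.3) had 9.24 prior degrees of freedom and Benjamini-Hochberg adjustment over all genes. With 1 residual degree of freedom its prior is poorly determined, and tests on simulated data gave more false calls than the nominal rate, so it is secondary to the sizes. The members, gene lists and tests were chosen with earlier results of these data known. All 4 levels are given for members called by size in at least 1 of the 5 differences, and levels or ranges for at most 2 further examples a family by highest mean level. Up to 3 called genes of each pathway list by largest mean difference were named, some with differences in place of levels. RAP2C, RAP1GAP2, RAPGEF1, RAPGEF3, RALA, RASA4, RASGRP3, RASSF10, RGS20, RHEBL1 and the RGS neighbours on chromosome 1 fall outside that rule and were chosen after their values were seen. The same holds for GNAI3, GNAQ and GNAL. Alternatives were another level filter or size threshold, cyclic loess, centring of each array, and log2 of the linear value plus 32. Promoter letters came from RefSeq (GRCh38.p14).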

Additional observations from a re-analysis of the deposited data

Results flagged for a closer look

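The differences below ran in opposite directions under the same contrast while their difference of differences was called by size. Each rests on 1 array per group, so the difference was not tested. Only opposite signs were asked for, so 1 of the 2 differences can be small and its sign uncertain. Examples are the siRNA differences of RAP1GAP (-0.16) and RGS4 (-0.09) without 8Br-cAMP and of RAP1GDS1 (0.15) with it. Another is the 8Br-cAMP difference of RASSF4 after siYT (-0.19). For these the opposite signs do not show a reversal. Between the media, the siRNA difference was 3.91 higher with than without 8Br-cAMP for RAP1GAP, 1.52 for RAP1GDS1, 1.40 for RASGRF2, 1.33 for RGS4 and 1.10 for SIPA1L3. For RASL11A this value was -2.99, with differences of -2.13 with and 0.86 without 8Br-cAMP. For RASD1 it was -1.91, with differences of -0.35 with and 1.56 without 8Br-cAMP, both arrays without 8Br-cAMP being under the filter. For RASSF4 it was -1.01 and for RASSF5 -1.02. Between the siRNAs, the siYT cells' 8Br-cAMP difference less that of the siNC cells was -1.27 for RGS2, with -0.36 after siYT and 0.91 after siNC. The same contrast gave 1.52 for RAP1GDS1, 1.40 for RASGRF2, 1.10 for SIPA1L3 and -1.01 for RASSF4, again with opposite signs after the 2 siRNAs.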

How the results depend on the processing

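No value of a member changed its sign under cyclic loess, centring or log2 of the linear value plus 32 where it had been called. Each percentage in parentheses here is the share of all genes called at the same setting. With the 1.5-fold threshold, 12 members were called for the siRNA without 8Br-cAMP (26.5%), 13 with it (23.3%), 14 for 8Br-cAMP after siNC (19.9%) and 21 in the difference of differences (21.1%). With a log2 threshold of 1.5 the counts were 2 for the siRNA with 8Br-cAMP (5.03%), 5 for 8Br-cAMP after siYT (3.01%) and 5 in the difference of differences (2.64%). Without a level filter 14 members were called for the siRNA with 8Br-cAMP (15.5%) and 16 for 8Br-cAMP after siNC (11.8%). With the filter at the negative controls' 95th percentile 5 were called for the siRNA with 8Br-cAMP (10.2%), and 4 without it (13.6%). These 4 were all higher, where 1223 of all genes were called higher and 1184 lower. With log2 of the linear value plus 32, 5 members were called for the siRNA with 8Br-cAMP (9.19%) and 7 in the difference of differences (5.8%), the member medians were 0.083 for the siRNA with 8Br-cAMP and -0.10 for 8Br-cAMP after siNC, and the limma model passed 0 of all 17687 genes, members included, for either term (at an unadjusted p under 0.05, 8 members and 3964 genes for the siRNA, 7 members and 2769 genes for 8Br-cAMP). Under cyclic loess, centring and the trend on mean level, 5 to 6 members passed for the siRNA, where 1820 to 2107 of 17687 genes passed. For 8Br-cAMP 6 to 7 members passed under these settings, where 508 to 744 genes passed. Among the 9750 genes with an array past the level filter, 2160 passed for the siRNA and 702 for 8Br-cAMP. Of the 33 members in that set 5 and 7 passed. For the siRNA, RAP1GAP was added under cyclic loess and RASD2 in the level-filtered set, which does not hold RGS20. Adding 32 shrinks low levels by construction. Under it 14 single-member calls were lost, among them RGS2 and RAP1GDS1 without 8Br-cAMP and RRAD, RASD2 and RASGRF2 with it. Centring each array lost 3 calls, RASSF3 after siYT and RASSF4 and RASSF5 in the difference of differences, and gained 3. Over all genes, 53.9% of the calls in the difference of differences were higher after centring, against 42.5% as deposited. No paired analysis was possible because each group has 1 array. No array could be left out, since each group has only 1. Where both levels lie near the negative controls, the size of a difference cannot be told from the background.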
